A study of Mus musculus with 3 samples.

Results

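The colony-stimulating factors (CSFs) are the growth factors of macrophages and granulocytes, and their mRNAs were followed here together with those of their receptors in stimulated macrophages. The set holds 3 ligand genes, Csf1, Csf2, and Csf3, and 4 receptor genes, Csf1r, Csf2ra, Csf2rb, and Csf3r. Members were the probes that were not controls and whose gene name on the array equals one of these 7 symbols. They were 12 probes with 30 spots, out of 55681 probes with 59305 spots and 34821 gene names. Of the 7 genes, 6 were well above background (brighter than the local background by the scanner software's test) on at least 1 array, and 5 were so on all 3 arrays. Across all gene names, 18812 were well above background on at least 1 array and 15894 on all 3.

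The cells were bone marrow-derived macrophages (BMDMs) of C57BL/6J mice, and the arrays compared 3 conditions after 20 h of stimulation. One array was of BMDMs given CpG, a DNA ligand of Toll-like receptor 9. Another was of BMDMs given IFN-γ with an antibody that blocks the IL-10 receptor, a group labelled IFN-g+IL-10RB and called IFN-γ + αIL-10R here. The last was of BMDMs given all of these agents (Triple). All 3 groups had been grown from marrow for 4 to 6 days with 10 units/ml of M-CSF from cells that carried a human M-CSF gene, so that every group had met the ligand of the Csf1r receptor before stimulation. Whether it stayed in the medium for the 20 h, and the sex and age of the mice, are not given in the sources used here. There was no unstimulated array, and there was 1 array per condition, so no difference below has a replicate check and no test between conditions was possible.

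M-CSF, the product of Csf1, is the main survival and growth factor of macrophages and acts through a receptor tyrosine kinase encoded by Csf1r. GM-CSF, the product of Csf2, binds a specific alpha chain from Csf2ra, which signals through a beta chain from Csf2rb that is shared with the receptors for the interleukins Il3 and Il5. G-CSF, the product of Csf3, drives neutrophil production through a receptor encoded by Csf3r, and activated macrophages are a known source of both GM-CSF and G-CSF.

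What each probe could read set how its values are described. The probes of Csf1 were of 2 kinds, since the array design assigned a probe with 10 spots to transcript variants 1 and 2 and a further 2 probes, with 1 spot each, to variant 3. Those 2 probes shared 31 of their 60 bases, so that their values are not independent. The start of each kind is shown in mm9, the build of the array's annotation, because both kinds lie in the same gene but at different places. The first is at chr3:107544363-107544392 and the other at chr3:107548551-107548580, both on the minus strand.
Csf1 variants 1 and 2: tgtggggcttacttagccttctggttacag
Csf1 variant 3: cagctgcatcatatattgtcatatgttgag

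The single probe of Csf3 at chr11:98564614-98564673 (mm9, plus strand) holds 1 copy of ATTTA, the core of the AU-rich elements that mark many cytokine mRNAs for rapid decay. These letters were in 7.71% of all probes. The 30 bases around it, at chr11:98564627-98564656, are shown with the ATTTA in capitals.
Csf3: tccctgtttaatATTTAaacagcagtgttc

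Mice carry a close relative of the shared beta chain gene, Csf2rb2, which encodes a beta chain of the Il3 receptor and lies beside Csf2rb on chromosome 15. It is no member, but the probes of the 2 genes were compared because similar sequences can share signal. In their best ungapped placement, the brighter probes of Csf2rb and Csf2rb2 were identical at 27 of 30 bases. The stretches below are at chr15:78181197-78181226 on the plus strand for Csf2rb and at chr15:78113145-78113174 on the minus strand for Csf2rb2 (mm9), with the bases that differ in capitals. Counted from 1 at the 5′ end of the Csf2rb stretch, with its base first, the differences were A11G, C15T, and C25A.
Csf2rb: ggcagatcaaAtgtCccttggtctCtgttc
Csf2rb2: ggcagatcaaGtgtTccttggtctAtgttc

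Over the 42 bases on which these probes could be overlaid, 31 were identical, and their longest identical run was 10 bases. The other pairs of Csf2rb and Csf2rb2 probes shared runs of 5 or 6 bases. Among the members, a run of 20 bases shared with a probe of another gene name was found only for Csf3r, whose probe shared one with 2 unnamed probes. Over the array, 7.21% of probes shared such a run with at least 1 other gene name, and 2.77% with at least 2. The Csf3r probe is at chr4:125721478-125721537 and the Csf2ra probe at chr19:61300336-61300395, on the plus and minus strand, and the Csf2 probe covers 28 bases of the genome at chr11:54060772-54060799 (minus strand) in the annotation.

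Signals are given as the processed signal of the scanner software, in arbitrary units and before scaling between arrays. An error after ± is the software's own error for 1 spot, which was near 10% for bright spots and covers no biological spread. Fold changes were computed after each array was shifted to a common 75th percentile, which lay at signals of 4377 to 4550. The errors of 2 bright spots together came to 0.20 on the log2 scale of a fold change. Replicate spots of the same probe within an array gave a smaller technical SD of 0.12 for such a change. This SD holds the spread between spots of 1 array and no spread between arrays. A gene was called changed if it differed by more than 2-fold and was well above background on the array where it was brighter. A signal that failed this test was set to the dimmest signal that passed it on that array (23.3 to 26.9 units over the arrays), unless it was higher already. Fold changes that rest on a signal set in this way are lower bounds and are written as at least a value.

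**Figure D1:**
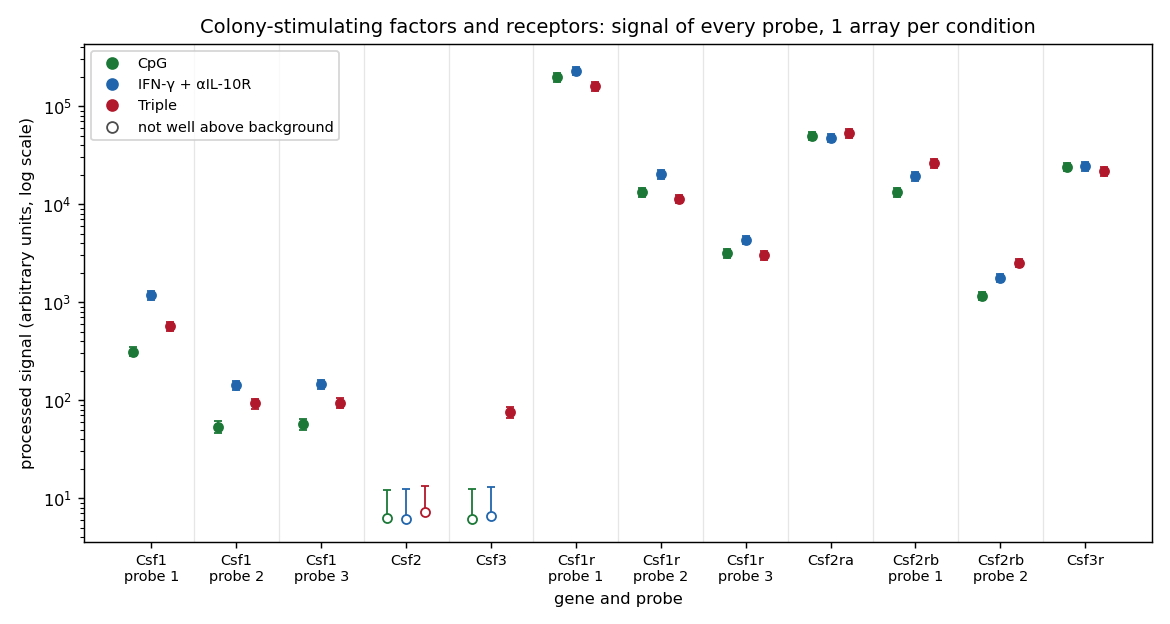
Processed signal (arbitrary units, log scale) of each of the 12 member probes on the CpG, IFN-γ + αIL-10R, and Triple arrays, with the software's spot error as bars (only the upper bar for open points) and open points for signals not well above background. Csf1 was brightest in IFN-γ + αIL-10R, Csf3 was well above background in Triple alone, and both Csf2rb probes were brightest in Triple.

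Of the ligands, Csf1 differed between all 3 arrays. Its probe for variants 1 and 2 gave 313 units in CpG, 1178 in IFN-γ + αIL-10R, and 564 in Triple. The 10 spots ran from 301.4 to 327.3 in CpG, from 1123 to 1272 in IFN-γ + αIL-10R, and from 492 to 628 in Triple, so that no spot of an array reached the range of another. CpG was lowest, Triple lay between, and IFN-γ + αIL-10R was highest. In the comparison of CpG with IFN-γ + αIL-10R, Csf1 was 3.83-fold lower in CpG (log2 fold change −1.94, SE of the spots 0.02), and 3.49% of all genes measured changed by at least as much in either direction. Csf1 was 2.04-fold lower in Triple than in IFN-γ + αIL-10R (log2 fold change −1.03, SE of the spots 0.04). This value is nearer to the threshold than the software's error of 0.20, and 7 of the 13 other ways to process the signals put it inside 2-fold. Against CpG, Csf1 was 1.87-fold higher in Triple, inside the threshold. In bulk RNA of this kind, less Csf1 mRNA per cell and fewer cells that make it cannot be told apart.

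The probes of Csf1 variant 3 kept the order of the arrays with smaller differences. One gave 53.7 ± 7.60 units in CpG, 142 ± 15.4 in IFN-γ + αIL-10R, and 92.7 ± 11.0 in Triple. The other gave 57.0 ± 7.60, 146 ± 15.6, and 93.7 ± 10.9. Both were highest in IFN-γ + αIL-10R and lowest in CpG. Their log2 fold changes for CpG over IFN-γ + αIL-10R were −1.43 and −1.38, past the threshold. For Triple over IFN-γ + αIL-10R they were −0.59 and −0.61, inside it, so that the probes disagreed on the call for Csf1 in Triple.

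**Figure D2:**
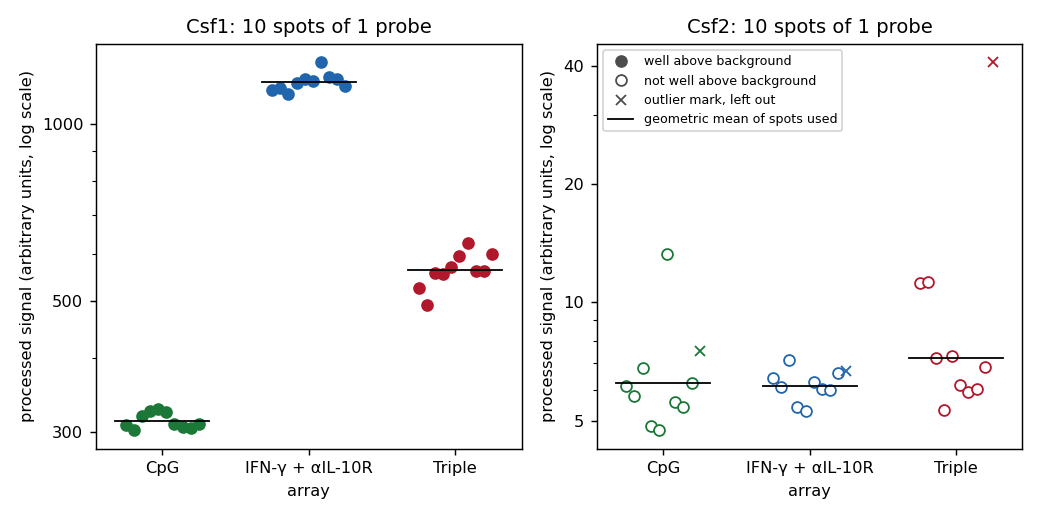
Processed signal (arbitrary units, log scale) of the 10 spots of the Csf1 probe for variants 1 and 2 and of the 10 spots of the Csf2 probe on each array, with the geometric mean of the spots used as a line, open points for spots not well above background, and crosses for spots with an outlier mark. The Csf1 spots form 3 separate groups, and the Csf2 spots used lie between 4.72 and 13.3 units on all arrays.

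Csf2 mRNA was not detectable on any array. Its probe had 10 spots, of which 9 were used on each array, and none of these was well above background. They ran from 4.72 to 13.3 units in CpG, from 5.30 to 7.12 in IFN-γ + αIL-10R, and from 5.32 to 11.3 in Triple, so that the arrays overlapped. Most of these signals nearly equalled the software's error for the spot, so the ranges are not read as levels of the mRNA. The spot left out lay at the same position on all 3 arrays and carried an outlier mark on each. In Triple it gave 40.9 ± 7.40 units and was well above background, while at that position CpG gave 7.54 and IFN-γ + αIL-10R gave 6.69. No fold change is given for Csf2, and a level below the detection limit of these arrays is not an absence of its mRNA.

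Csf3 was well above background in Triple alone. It gave 6.17 ± 6.19 units in CpG, 6.50 ± 6.52 in IFN-γ + αIL-10R, and 76.0 ± 10.0 in Triple. The signals of CpG and IFN-γ + αIL-10R nearly equalled their errors, as did those of most Csf2 spots used, so they are not read as levels. Only the signal of Triple was well above its error. Csf3 was at least 2.91-fold higher in Triple than in IFN-γ + αIL-10R and at least 3.32-fold higher than in CpG. CpG and IFN-γ + αIL-10R gave no fold against each other. The gene had 1 probe with 1 spot, so its value in Triple rests on a single spot. The background correction called normexp fits a different background model to the unprocessed signals and was run with an offset of 50. With normexp, the log2 fold changes of Csf3 were 0.64 and 0.72, and the gene was no longer called in either comparison. The offset is added to every signal and by construction shrinks the fold changes of dim genes such as Csf3. Its share in this loss was not tested.

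Of the receptors, Csf1r, which defines the macrophage lineage, was bright and changed little. Its brightest probe gave 196810 units in CpG, 230482 in IFN-γ + αIL-10R, and 159074 in Triple, with IFN-γ + αIL-10R highest and Triple lowest. Another probe gave 13203, 20117, and 11403 units in the same order, and the dimmest gave 3138, 4322, and 3024. All 3 probes had their highest processed signal in IFN-γ + αIL-10R and their lowest in Triple, but after scaling the dimmest probe did not separate Triple from CpG. The log2 fold changes of Triple over IFN-γ + αIL-10R were −0.50, −0.79, and −0.48, each beyond the software's error of 0.20 and inside the threshold. For CpG over IFN-γ + αIL-10R they were −0.25, −0.63, and −0.49. For Triple over CpG they were −0.25, −0.16, and 0.00, within the software's error for the last 2 of these. Csf1 and Csf1r thus both had their highest signal in IFN-γ + αIL-10R. CpG was lowest for Csf1, whereas Triple was lowest for Csf1r beyond the software's error by its brightest probe only.

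Csf2ra, the chain that makes the GM-CSF receptor specific, gave 49802 units in CpG, 47585 in IFN-γ + αIL-10R, and 53218 in Triple. The log2 fold changes were 0.19 for Triple over IFN-γ + αIL-10R, 0.15 for Triple over CpG, and 0.04 for CpG over IFN-γ + αIL-10R. All were within the software's error, so the order of the arrays is not resolved for this gene.

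Csf2rb, the shared beta chain, rose in Triple over CpG. Its brighter probe gave 13192 ± 1319 units in CpG, 19292 ± 1929 in IFN-γ + αIL-10R, and 26178 ± 2618 in Triple. The second probe gave 1164, 1767, and 2512 units in the same order. Both probes were lowest in CpG and highest in Triple, with IFN-γ + αIL-10R between. Csf2rb was 2.06-fold higher in Triple than in CpG by the brighter probe (log2 fold change 1.04) and 2.24-fold higher by the other (1.17). Both are within the software's error of 0.20 of the threshold, and the brighter probe was inside 2-fold when signals were scaled on spike-in probes or on Actb or were not scaled. The log2 fold changes of the probes were 0.47 and 0.54 in Triple against IFN-γ + αIL-10R. For CpG over IFN-γ + αIL-10R they were −0.57 and −0.63, all inside the threshold.

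Csf2rb2 was close to Csf2rb in Triple over CpG and further from it in the comparisons with IFN-γ + αIL-10R. Its brighter probe gave 14915 units in CpG, 33109 in IFN-γ + αIL-10R, and 27945 in Triple, and its second probe gave 2696, 5424, and 5535. Csf2rb2 was 2.26-fold lower in CpG than in IFN-γ + αIL-10R by the brighter probe and 2.05-fold lower by the second. From IFN-γ + αIL-10R to Triple the probes of Csf2rb2 changed by −0.21 and 0.06 on the log2 scale, where those of Csf2rb changed by 0.47 and 0.54. For Triple over CpG the values were 0.96 and 1.09 for Csf2rb2 and 1.04 and 1.17 for Csf2rb. CpG was the lowest array for both genes, and the second Csf2rb2 probe was highest in Triple, as Csf2rb was. The shared bases of the probes are given above, and their part in these values was not tested.

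The only probe of Csf3r, the G-CSF receptor gene, gave 23984 units in CpG, 24394 in IFN-γ + αIL-10R, and 21651 in Triple. The log2 fold changes of Csf3r were −0.14 for Triple over IFN-γ + αIL-10R, −0.09 for Triple over CpG, and −0.05 for CpG over IFN-γ + αIL-10R. All lay within the software's error. Of the 2 unnamed probes that share a run of 20 bases with the Csf3r probe, 1 was measured on all arrays. Its log2 fold changes were −0.37, −0.24, and −0.13 in the same comparisons. The most shared run lay at bases 40 to 59 of the Csf3r probe. The search for shared runs covered only the probes of the array, so it cannot count all transcripts that hold this run. How much of the Csf3r signal came from such transcripts was not tested, and the values above are those of the probe.

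**Figure D3:**
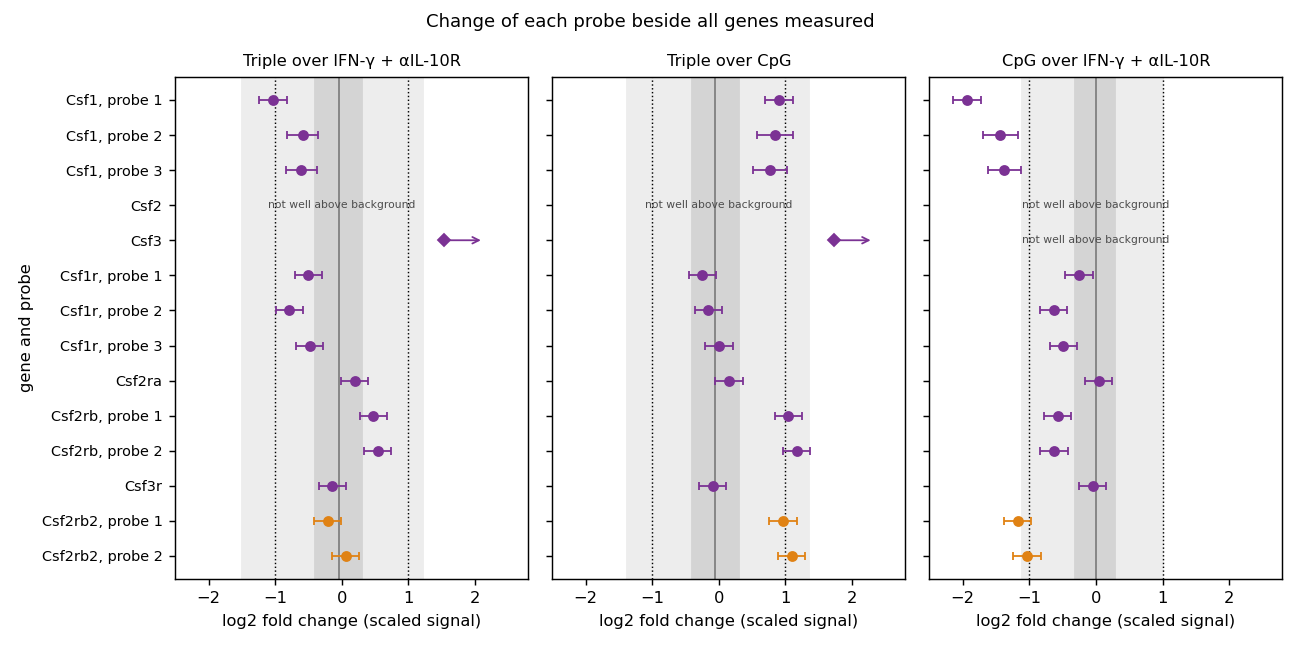
Log2 fold change of each member probe (violet) and of the Csf2rb2 probes (orange) in the 3 comparisons, with the software's error as bars, an arrow for lower bounds, the 2-fold threshold as dotted lines, and all genes measured as grey bands (5th to 95th and 25th to 75th percentile) around their median. Csf1 lies to the left in both comparisons with IFN-γ + αIL-10R, Csf3 to the right in both comparisons of Triple, and Csf1r, Csf2ra, and Csf3r lie inside the threshold in all 3.

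Counted over the set, 6 members could be compared between Triple and IFN-γ + αIL-10R. Of these, 1 was called up-regulated (Csf3), where 6.57% of all genes measured were, and 1 was called down-regulated (Csf1), where 9.31% were. Between Triple and CpG, 2 of 6 were called up-regulated (Csf3 and Csf2rb), against 7.47% of all genes, and 0 were called down-regulated, against 8.34%. Between CpG and IFN-γ + αIL-10R, 0 of 5 were called up-regulated, against 5.06%, and 1 was called down-regulated (Csf1), against 5.84%. With 5 or 6 genes these counts are too small to set the family apart from the background. The 3 comparisons share their arrays, so a high or low array enters more than 1 of them. The median log2 fold change over all genes measured was −0.05, −0.06, and 0.00 in the 3 comparisons. The same shares and medians are the background for the gene lists below, and no list was tested against them.

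**Figure D4:**
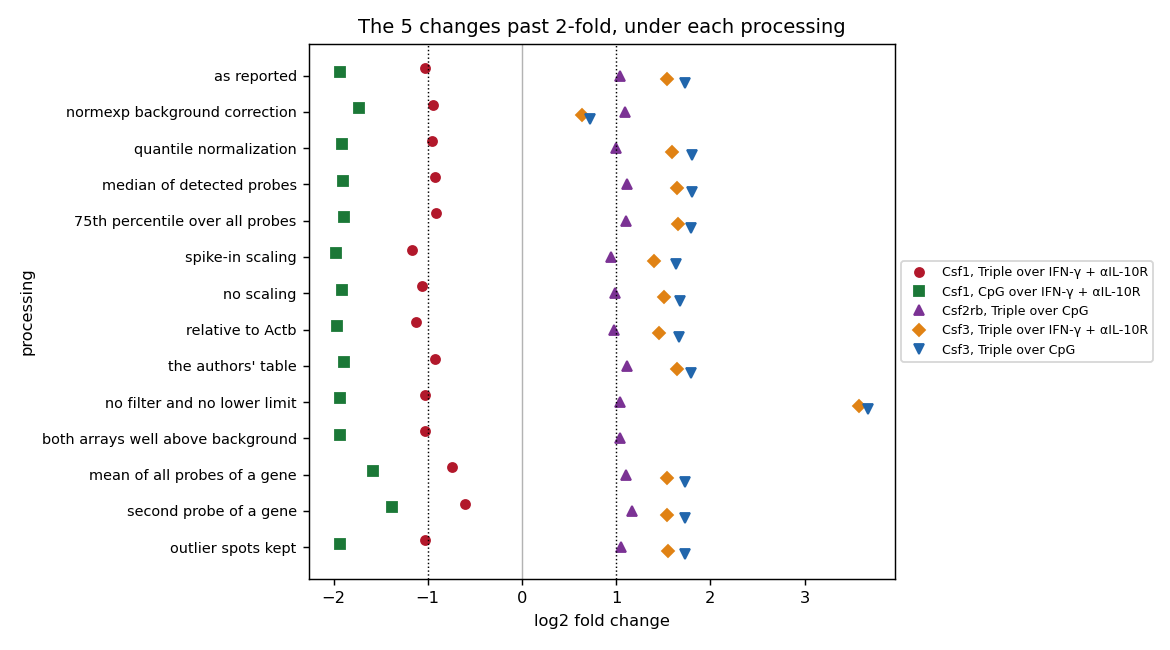
Log2 fold change of the 5 member changes past 2-fold as reported and under the 13 other ways to process the signals, with the 2-fold threshold as dotted lines and no point where the filter leaves no value. Csf1 in CpG over IFN-γ + αIL-10R stays past the threshold throughout (−1.98 to −1.38), while Csf2rb in Triple over CpG and Csf1 in Triple over IFN-γ + αIL-10R lie on either side of it, and Csf3 falls inside it with normexp.

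The genes whose pattern over the 3 arrays was most like that of each member were found by the root mean square difference of their mean-centred log2 signals, over 10695 genes. For Csf1 the nearest were Slc23a2 (0.04), Tspan33 (0.06), and 9930111J21Rik1 (0.06), and only 6 genes lay within 0.1 of it. For Csf2rb they included Magef1 and Apool (0.02 each), with 88 genes within 0.1. For the flatter members many genes lay as near, 706 for Csf1r (led by Mpc2, Mrps36, and Sgk3), 1515 for Csf2ra (led by Sec63, Gm2240, and Rictor), and 1753 for Csf3r (led by Tbc1d25, Ccdc47, and Rmnd1). With 3 arrays, likeness is a statement about 3 values per gene.

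The other ligands and chains of these receptor systems were mostly below detection. Il34, the second ligand of the Csf1r receptor, and Il3, Il5, and Il5ra were not well above background on any array. Il3ra, the alpha chain of the Il3 receptor, was well above background on all arrays and stayed inside the threshold, with log2 fold changes of −0.07, 0.24, and −0.31 in the order of comparisons above. With Csf2rb2, 2 of these 6 relatives could be compared, and 1 of them was called in 1 comparison.

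Other cytokines of blood cell growth and their receptors held some of the larger differences. In Triple over IFN-γ + αIL-10R, 1 of 10 genes measured was up-regulated and 3 were down-regulated, with a median log2 fold change of −0.22. Osm, the cytokine oncostatin M, was 5.02-fold higher in Triple. Lifr, the receptor for leukaemia inhibitory factor, was 23.5-fold lower, Kitl, the ligand of the Kit receptor, 3.24-fold lower, and Il7 3.12-fold lower. The scaled signals of Lifr and Il7 in Triple were 38.1 and 31.8, near the dimmest signal that passed the background test there (26.9). The sizes of their changes in Triple are therefore uncertain. Against CpG, Osm was again higher in Triple (3.87-fold), while Lifr was 12.7-fold lower and Epor, the erythropoietin receptor, at least 3.98-fold lower (median of 10 genes 0.06). In CpG over IFN-γ + αIL-10R, Kitl was 3.63-fold lower and Il7 at least 4.25-fold lower, while Kit was at least 3.46-fold higher and Il7r and Epor were 2.08-fold and 2.05-fold higher (median of 10 genes −0.30). Kitl resembled Csf1 in being highest in IFN-γ + αIL-10R, with scaled signals of 142.6 in CpG, 517.1 in IFN-γ + αIL-10R, and 159.4 in Triple.

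Genes that carry or restrain signals from these receptors were mostly inside the threshold. When Triple was compared with IFN-γ + αIL-10R, 5 of 27 were up-regulated and 0 down-regulated (median log2 fold change 0.25). They were Socs3, a feedback inhibitor of cytokine receptors (6.53-fold), Fgr, a Src family kinase (3.32-fold), Pik3cg, a catalytic subunit of a phosphoinositide kinase (2.50-fold), Cish, a Stat5-induced inhibitor (2.41-fold), and Jak2, the kinase bound to the beta chain (2.40-fold). In Triple over CpG, 6 of 28 were up-regulated and 1, Sos1, was at least 2.05-fold lower (median 0.04). Among all genes measured, 7.47% were up-regulated and 8.34% down-regulated in Triple over CpG (median −0.06). Socs1 was 49.9-fold higher, Cish 4.97-fold, Jak2 3.84-fold, Socs3 3.14-fold, Stat3 2.94-fold, and the kinase gene Pim1 2.53-fold. In CpG over IFN-γ + αIL-10R, 4 of 28 were up-regulated, led by Fgr (4.38-fold) and Pik3cg (3.10-fold), and 3 were down-regulated, led by Socs1 (39.0-fold) and Stat3 (2.21-fold), with a median of 0.05. Stat5a and Stat5b, which GM-CSF receptors activate, stayed inside the threshold in all 3 comparisons.

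Transcription factors known to act at Csf1r or in macrophage identity changed in both directions while Csf1r stayed inside the threshold. In Triple over IFN-γ + αIL-10R, 3 of 13 were up-regulated and 4 down-regulated (median log2 fold change −0.23). Ets2 was higher by 3.33 on the log2 scale and Sfpi1 (now Spi1, encoding PU.1) 2.16-fold higher, while Cebpa was 5.05-fold lower and Fos 2.99-fold lower. In Triple over CpG, 1 of 13 was up-regulated, Irf8 at 4.60-fold, and 6 were down-regulated, among them Cebpa (6.30-fold) and Ets1 (3.83-fold), with a median of −0.55. In CpG over IFN-γ + αIL-10R, 3 were up-regulated, Ets2 (10.7-fold, log2 3.42), Egr2 (6.39-fold), and Ets1 (2.39-fold), and Irf8 was 3.89-fold lower (median 0.32).

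The list of M-CSF-dependent growth holds genes that drive the cell cycle and the inhibitors Cdkn1a and Cdkn1b, which were inside the threshold in all 3 comparisons. In Triple against IFN-γ + αIL-10R, 5 of 12 were down-regulated and 1 up-regulated (median log2 fold change −0.87). The cyclin gene Ccnd1, an early target of M-CSF, was 8.49-fold lower, and the proliferation genes Mki67, Top2a, and Mcm2 were 5.58-fold, 4.15-fold, and 3.70-fold lower. Against CpG, 6 of 12 were down-regulated and 2 up-regulated (median −0.99), where the first count ran from 5 to 7 over the ways to process the signals. Mki67 was 5.36-fold lower, Mcm2 3.48-fold lower, and Ccnd1 3.24-fold lower, while Ccnd2 was 4.05-fold higher in Triple. In CpG over IFN-γ + αIL-10R, Myc was 3.53-fold higher and Ccnd2 and Ccnd1 were 7.59-fold and 2.62-fold lower (median of 12 genes −0.14). Csf1r, the receptor for M-CSF, was lower in Triple than in IFN-γ + αIL-10R by all 3 of its probes, inside the threshold. For Triple over CpG its probes gave log2 fold changes of −0.25, −0.16, and 0.00. A link between Csf1r and the growth genes was not tested.

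Of the genes known to follow GM-CSF, which had no detectable Csf2 mRNA beside them, 8 of 12 could be compared between Triple and IFN-γ + αIL-10R. Of these, 2 were up-regulated and 0 down-regulated (median log2 fold change 0.86), namely Bhlhe40 (3.76-fold), which acts in GM-CSF-dependent macrophages, and Cish. In Triple over CpG, 2 of 7 were up-regulated, Cish and Pim1, which are also in the signalling list, and 0 were down-regulated (median 0.58). In CpG over IFN-γ + αIL-10R, Batf3 (2.49-fold) and Bhlhe40 (2.21-fold) were higher and Cish 2.06-fold lower (median of 8 genes 0.39). Ccl17, Ccl22, and Cd209a, genes of GM-CSF-grown cells, were not well above background on any array.

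**Figure D5:**
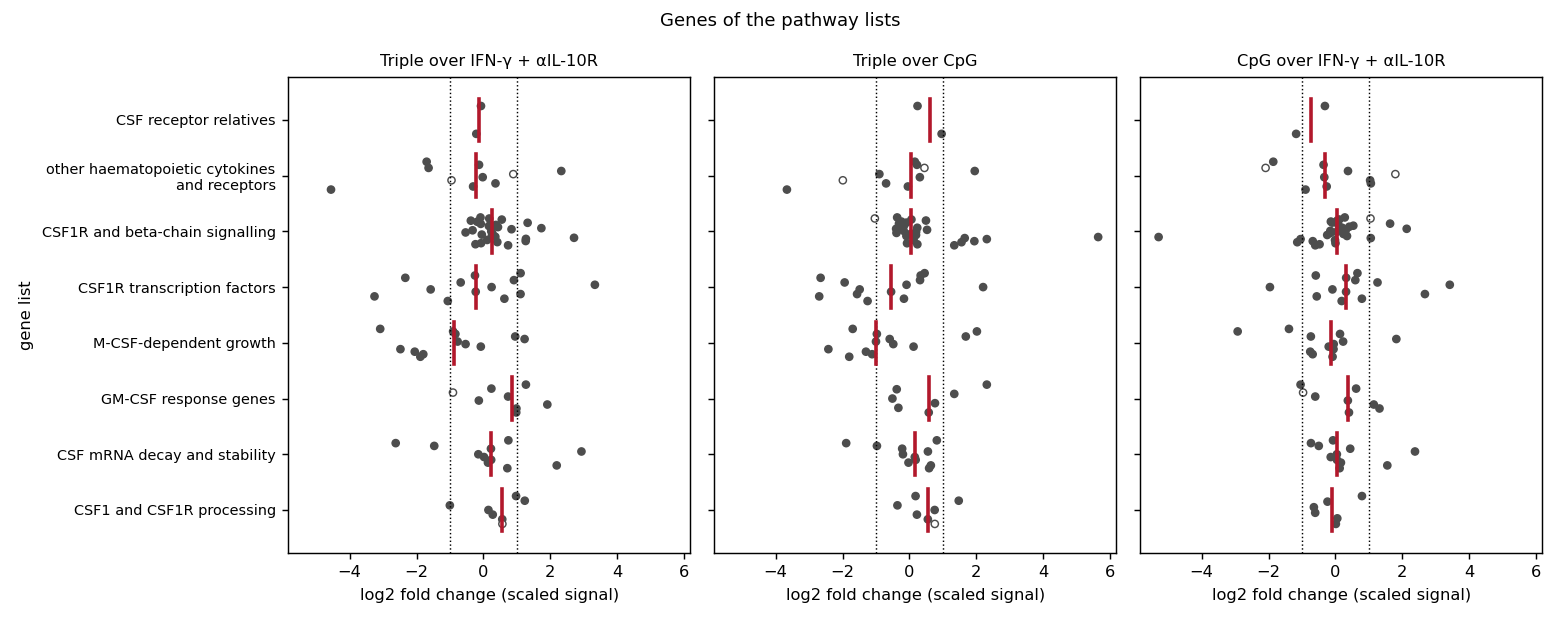
Log2 fold change of each gene of the 8 pathway lists in the 3 comparisons, with the list median in red, the 2-fold threshold as dotted lines, and open points where 1 of the arrays was not well above background. The medians of the growth list lie to the left in both comparisons of Triple (−0.87 and −0.99), and single genes such as Socs1 and Lifr lie far from their lists.

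Genes that control the stability of CSF mRNAs also moved in both directions. In Triple over IFN-γ + αIL-10R, Zc3h12a, which encodes an RNase of cytokine mRNAs, was 7.62-fold higher and Dusp1, a phosphatase of the kinases that stabilise them, 4.56-fold higher. Zfp36l1 and Zfp36l2, which encode proteins that bind AU-rich elements, were 6.16-fold and 2.77-fold lower (2 up and 2 down of 11, median log2 fold change 0.22). In Triple over CpG, Zfp36l1 was 3.71-fold lower and no gene of the list was up-regulated (median 0.16). In CpG over IFN-γ + αIL-10R, Zc3h12a and Dusp1 were 5.20-fold and 2.93-fold higher (median 0.04). Of the genes for cleavage of M-CSF and its receptor at the cell surface, Rhbdf2, a partner of the protease encoded by Adam17, was 2.35-fold higher in Triple than in IFN-γ + αIL-10R and 2.78-fold higher than in CpG, and the protease gene Adam10 was 2.01-fold lower in Triple than in IFN-γ + αIL-10R. The medians of the 7 such genes were 0.56 and 0.55 in the comparisons of Triple. Between CpG and IFN-γ + αIL-10R, 0 of 6 were called (median −0.11).

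Markers of other cells were measured beside these values. All 7 macrophage markers on the array were well above background in every condition, with summed scaled signals of 346249 to 659637. Single markers went different ways. Marco gave 88470 in CpG, 4664 in IFN-γ + αIL-10R, and 289100 in Triple, whereas Cd68 gave 150700, 190700, and 84890. The sum is therefore no measure of the number of macrophages. Of 12 neutrophil markers, 7 were well above background in CpG, 5 in IFN-γ + αIL-10R, and 6 in Triple, with summed scaled signals of 4380, 9550, and 5361. Mpo, Ltf, Ngp, Retnlg, and Cxcr2 were not well above background on any array, while S100a8, Ly6g, Elane, and Mmp8 were so on all 3 arrays. In the order CpG, IFN-γ + αIL-10R, and Triple, the scaled signals were 544.6, 7688, and 2712 for Ly6g, 2786, 1613, and 1570 for Elane, and 291.5, 55.7, and 527.4 for S100a8. The signal of the Csf3r probe differed by less than the software's error between these arrays. Of 6 dendritic cell markers, 1, 3, and 4 were well above background in the same order, with Flt3 and Cd209a on no array. Siglech was at 30340 to 35920 on all arrays, Clec9a was well above background in IFN-γ + αIL-10R (1960) and Triple (155.0) but not in CpG, and Xcr1 was so in Triple alone. Of 8 T or NK cell markers, 3 were so on each array, with Cd3d and Cd3g on none. These 3 were Cd3e (821.9 to 867.5), Cd4 (1616 to 1940), and Lck (92.6 to 168.8). Of 5 B cell markers 2 were well above background on each array, with Ms4a1 on none and Cd79b at 786.2 in CpG, 181.8 in IFN-γ + αIL-10R, and 109.9 in Triple. Of 5 fibroblast markers, 3, 2, and 4 were well above background in that order. Of 3 endothelial markers, 2, 1, and 1 were, with Kdr at 5245 to 5822 on all arrays. Of 4 mast cell or basophil markers, 1, 0, and 1 were, and of 4 erythroid markers 0 were on any array. The part of other cells in the values of the members was not tested.

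Promoter sequences (250 bases before to 50 after the start, RefSeq, GRCm38.p6) were at hand for 4 of the 7 members, Csf1, Csf2, Csf2ra, and Csf3r. They were searched on both strands for 8 motifs. The letters GGGANTTCC (NF-κB type), GAGATTCC (a core shared by CSF promoters), TGANTCA (AP-1), TTCNNNGAA (Stat type), and TATAAA were in none of the 4 and in 1.68%, 0.904%, 7.81%, 8.30%, and 13.6% of all 32851 promoters. TGACGTCA, the cAMP response element, was in the promoter of Csf2ra and in 1.79% of all. GAGGAA, the core bound by PU.1, was in Csf2ra at 2 places and in Csf3r at 1, and in 28.3% of all promoters. GAAANNGAA (interferon response type) had 1 match each in Csf2 and Csf3r and was in 8.56% of all. A match describes letters in this window and says nothing of binding, and the same holds for the lack of one. The windows follow the annotated starts, and whether they cover the promoters used in these cells was not tested. Letters missing from a window, such as GAGATTCC for Csf2, may lie outside it.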

How the data were processed

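Gene expression was measured in BMDMs with 1 Agilent 8 × 60K mouse array per condition. The deposited scanner files came from Agilent Feature Extraction 10.10.1.1. Their processed signal is a linear intensity from which the authors' software had subtracted background, with no scaling between arrays. A deposited table of log2 values was used as an alternative. Precision is limited by the signal over background and by having 1 array per condition. On the arrays, 44.4% to 46.0% of spots were well above background, and 0 were saturated. They shared 1 slide and 1 scan time.

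Spots marked as outliers (3.04% to 3.78%) and controls were left out, and spots of 1 probe were averaged as log2. Log2 signals were then centred on the 75th percentile of the 21233 probes well above background on every array. The probe with the highest mean stood for a gene, and a probe with several spots was well above background if most of them were. No p-value is given. The code was tested on simulated data. Of 158 list genes, 154 were on the array.

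The members and lists were chosen with earlier results of these data known. The genes named were all members with every probe, Csf2rb2 and 5 other receptor relatives, at most the 4 largest changes past 2-fold of each list and comparison, and the 3 nearest genes in pattern, except for some genes that are not reported here. Jak2, Stat3, Pim1, Sos1, Sfpi1, Stat5a, Stat5b, Il7r, Epor, Ccl17, Ccl22, and Cd209a were named beyond this rule in some comparisons, after their values were seen. Alternatives were scaling by quantiles, the median, spike-in probes, Actb, or not at all, normexp in limma 3.58.1 (R 4.3.3) with an offset of 50, the percentile over all probes, the authors' table, other filters and probes, outlier spots kept, and thresholds of 1.5-fold and 3-fold. Python 3.11.15 with numpy 2.4.6 and pandas 2.3.3 was used.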

Additional observations from a re-analysis of the deposited data

How the results depend on the processing

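The lower Csf1 in CpG than in IFN-γ + αIL-10R kept its direction and call under all 13 alternatives to its processing, with log2 fold changes from −1.98 to −1.38. No called member changed direction under any alternative that gave it a value. Csf1 in Triple against IFN-γ + αIL-10R ran from −1.16 with spike-in scaling to −0.61 with the second probe, and 0 members were down-regulated there, in place of 1, with normexp, quantile, or median scaling, the percentile over all probes, the authors' table, the mean of all probes, the second probe, or a 3-fold threshold. Csf2rb in Triple against CpG ran from 0.95 to 1.17, and 1 member, Csf3, was up-regulated there in place of 2 with spike-in, Actb, or no scaling or a 3-fold threshold. With normexp, or with both arrays required to be well above background, Csf3 was lost, which left 1 member (Csf2rb) up-regulated in Triple against CpG and 0 against IFN-γ + αIL-10R. The second of these filters cannot keep Csf3 by its construction. With normexp, the offset by construction shrinks the fold changes of dim genes such as Csf3. Its share in the loss of Csf3 and the cause of the other shifts were not tested. Without a filter and a lower limit, the log2 fold changes of Csf3 were 3.58 and 3.68. These sizes rest on signals in CpG and IFN-γ + αIL-10R that nearly equalled their errors. Of 219 values of member fold changes under the alternatives, 199 moved by less than the technical SD of 0.12, and 20 moved by more. Between Triple and IFN-γ + αIL-10R, the median log2 fold change of every gene measured moved from −0.05 to −0.18 with spike-in scaling and to 0.07 with the percentile over all probes. The changes at stake move with these shifts. Of 312 values of list medians, 288 moved by less than that SD and 24 by more, and of 624 counts of list genes past the threshold, 572 stayed within 1.5 times and 52 did not. List medians near 0 took either sign, as for the signalling list in Triple over CpG (−0.05 to 0.12), while those of the growth list stayed below 0 in every comparison.

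No paired analysis was possible because the groups held 1 array each and shared no other number. A slide block could not be fitted, since all arrays were on 1 slide. The motifs had 6 matches in the 4 member promoters, and 4 in the 150 bases before the start. With 1 array per condition, and 1 spot for Csf3, the spread between cultures is unknown.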
